A study of Rattus norvegicus with 18 samples.

Results

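The genes described here were the vascular endothelial growth factor (VEGF) ligands Vegfa, Vegfb and Vegfc, the VEGF receptors Flt1 and Kdr with the co-receptor Nrp1, the angiopoietins Angpt1 and Angpt2, and the Tie receptors Tek (also called Tie2) and Tie1. They were chosen by name, through the gene symbol or transcript accession that the scanner files give for each probe, and all 10 were on the array among 35258 gene names. All 10 were tested, together with 27183 gene names in all, and each of their 17 probes was well above background on all 18 arrays. Expression was measured in the proximal stump of the sciatic nerve of adult male Sprague-Dawley rats, after a segment of the nerve had been cut out above its division. Nerve taken at the time of transection (0 h) served as the baseline, and it was compared with stumps left in place for 0.5, 1, 3, 6 or 9 h. Each time-point had 3 single-colour Agilent arrays, and all groups shared strain, sex and surgery. The sources used here do not say whether an array held RNA of 1 rat or of several, so the P-values measure the spread between these arrays, which may be partly technical.

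VEGF proteins bind receptor tyrosine kinases on endothelial cells and set vessel permeability, sprouting and survival. Kdr (VEGFR-2) carries most of that signal, whereas Flt1 (VEGFR-1) binds Vegfa tightly and is also made as a soluble form that holds the ligand away from Kdr. Angiopoietins act through the second kinase pair: Angpt1 activates Tek and keeps vessels quiet, Angpt2 mostly competes with it, and Tie1 forms complexes with Tek. Within a peripheral nerve these proteins concern the vessels of the endoneurium and the blood-nerve barrier, and some are also made by Schwann cells, macrophages and muscle.

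Levels are log2 signals of a gene's probe minus the 75th percentile of its array, so a level of 0 equals that percentile. A gene was represented by its brightest tested probe, called the reported probe, and levels are compared between arrays and never between genes. A gene was called changed in a limma test at an unadjusted P below 0.01 and a Benjamini-Hochberg adjusted P below 0.05 over all probes tested. The Vegfa and Vegfb reported probes are shown because they read closely related mRNAs, with the run of letters that they share in capitals. Both are given 5′ to 3′ as the scanner files list them, at chr9:10528580-10528965 on the + strand for Vegfa and chr1:209659244-209659672 on the - strand for Vegfb (rn4), genomic spans longer than a probe, so that each crosses an intron.
Vegfa: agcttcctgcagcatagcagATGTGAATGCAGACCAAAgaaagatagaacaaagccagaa
Vegfb: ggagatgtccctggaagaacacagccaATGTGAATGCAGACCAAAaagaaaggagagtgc
The shared run was 18 letters long, and at the best ungapped alignment 30 of 60 letters matched. Among the other pairs of the 45 pairs of reported probes of different genes, the longest shared run was 10 letters. Cross-binding between Vegfa and Vegfb was not tested.

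The 18 arrays had 65.9 to 93.5% of spots well above background, no saturated spot, and correlations of 0.958 to 0.993 between arrays of the same time-point. The 6 h replicate 1 array stood apart with the highest of those shares. The arrays had been scanned on 3 days: all 0 h and 0.5 h arrays on the first, 9 h replicate 3 alone on the third, and all others on the second. For 1 h to 9 h against 0 h, scan day and time therefore cannot be told apart, whereas 0.5 h against 0 h lay within the first day and 3 h and 6 h against 1 h within the second. The arrays lay on 9 slides, each with arrays of 1 time-point only. In every contrast, slide and time therefore cannot be told apart. Markers of the expected cell types were present on every array, including Pmp22 of Schwann cells and Pecam1, Cdh5 and Vwf of endothelium. Skeletal muscle genes varied most between arrays. Their summed level over 14 genes, in units of the array's 75th percentile, was 118 to 2010 at 0 h and 3.42 to 523 at the later time-points.

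Across the 6 time-points, 5 of the 10 genes changed in the F-test, beside 34.6% of all gene names tested. They were Flt1, Vegfc, Vegfb, Nrp1 and Kdr. The adjusted P-values of the 5 were 0.000563 for Flt1, 0.00256 for Vegfc, 0.0047 for Vegfb, 0.00822 for Nrp1 and 0.0228 for Kdr in limma. The reported probes of both angiopoietins, both Tie receptors and Vegfa were not called, with adjusted P-values from 0.0667 for Tek to 0.307 for Angpt1. The third Angpt2 probe was called in the same test (adjusted P = 0.0164), a call lost without 1 h replicate 2, 9 h replicate 1 or 9 h replicate 3 (adjusted P up to 0.0601). The Kdr call was the weakest: it was lost when any 1 of 10 single arrays was left out, namely 0 h replicates 2 and 3, 0.5 h replicate 3, 1 h replicate 1, 3 h replicate 2, 6 h replicates 1 and 3, and each of the 9 h arrays, with an adjusted P of up to 0.0787. The Nrp1 call was lost without 3 h replicate 1 (adjusted P = 0.042, with an unadjusted P above 0.01), and Tek was called without 3 h replicate 3 (adjusted P = 0.0282).

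**Figure D1:**
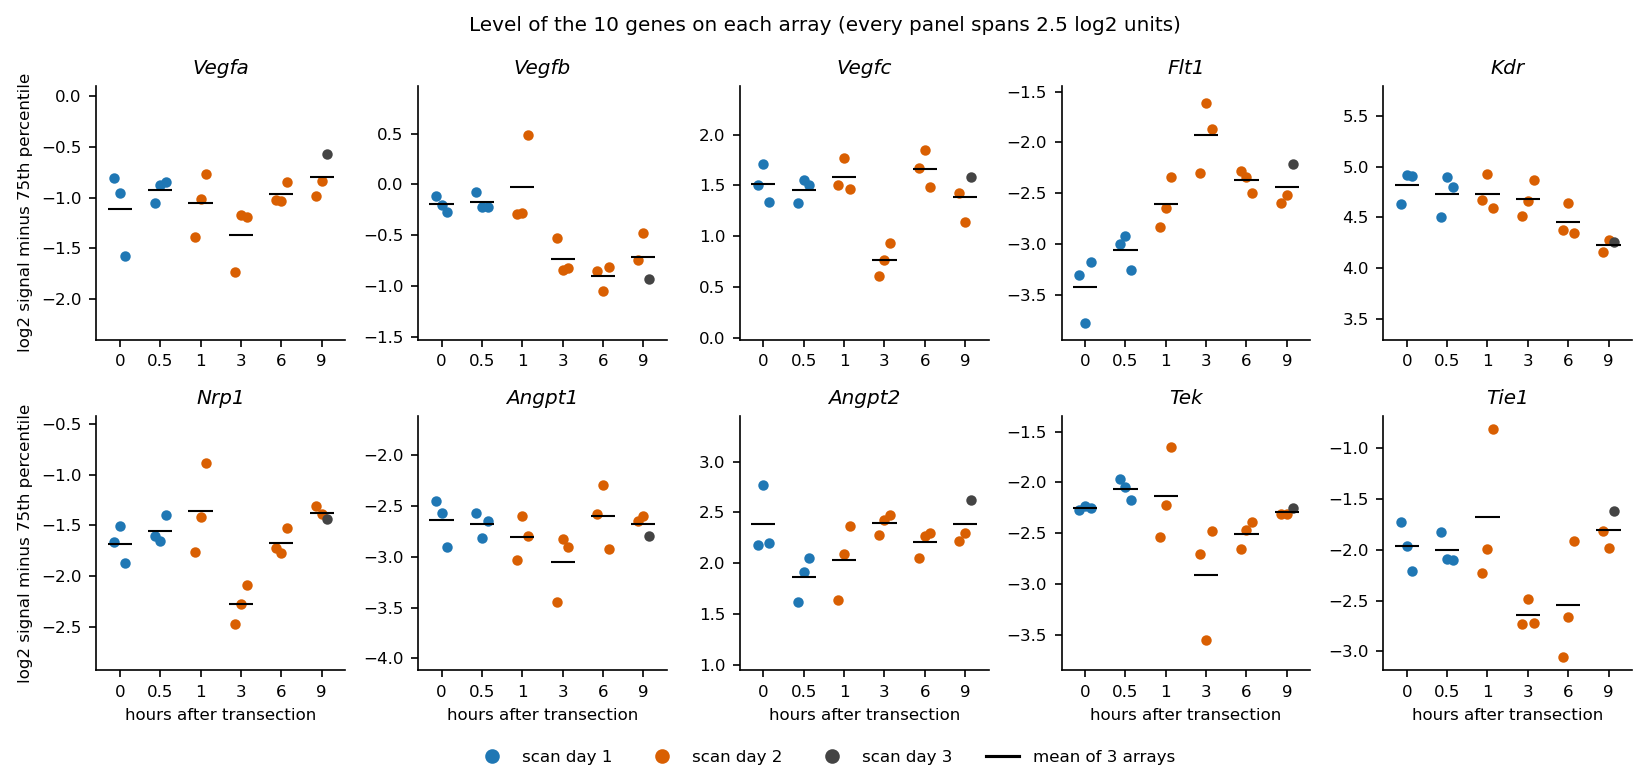
Level of each of the 10 genes on the 18 arrays, as log2 signal of the reported probe minus the array's 75th percentile, against hours after transection. Points are single arrays coloured by scan day, lines are means of 3 arrays, and every panel spans the same number of log2 units. Flt1 was highest at 3 h (-2.30 to -1.61), where Vegfc (0.61 to 0.93) and Nrp1 (-2.47 to -2.09) were lowest.

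At each time-point few of the 10 genes differed from the 0 h nerve. At 0.5 h none was called in limma, beside 6% of all gene names, and 1 (Angpt2) had an unadjusted P below 0.05. At 1 h 1 gene was called, beside 5.63%. At 3 h 3 were called, beside 14%, of which 1 was higher and 2 were lower. At 6 h 2 were called, beside 25%, and at 9 h 2 were called, beside 31.1%, each time 1 higher and 1 lower. The median change over the 10 genes was -0.47 at 3 h, against 0.00 over all gene names tested, and lay between -0.09 and 0.09 at the other time-points. The low values at 3 h depended on the background correction: with normexp, Nrp1 was -0.07, Vegfb -0.17, Vegfa -0.05 and Tie1 -0.05, whereas Vegfc was -0.82, and Angpt1 and Tek had the other sign (0.26 and 0.34).

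**Figure D2:**
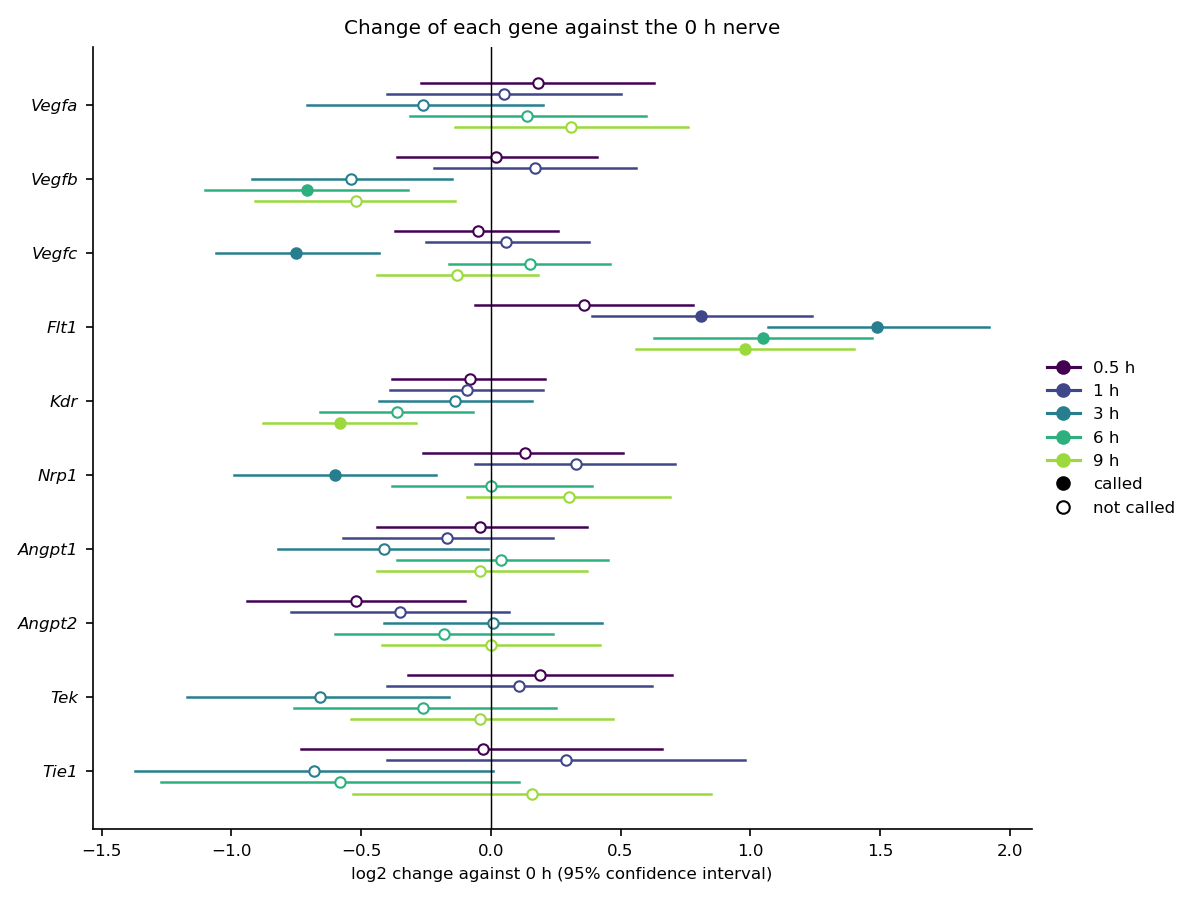
Change of each gene against 0 h, at each later time-point, on the log2 scale, with 95% confidence intervals from limma. Filled points were called and open points were not: the filled points are Flt1 from 1 h on to the right of 0, and Vegfc and Nrp1 at 3 h, Vegfb at 6 h and Kdr at 9 h to the left.

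Flt1, the high-affinity VEGF receptor, was the 1 gene of the 10 called higher than at 0 h with its reported probe. Its level was -3.31, -3.78 and -3.18 on the 0 h arrays and -3.00, -2.92 and -3.26 on those of 0.5 h. The 1 h arrays gave -2.83, -2.65 and -2.34, and the 3 h arrays gave -2.30, -1.61 and -1.87. The level was -2.28, -2.34 and -2.50 by 6 h and ended on -2.60, -2.52 and -2.21 by 9 h. Every array from 1 h on was above all 6 arrays of 0 h and 0.5 h. The change against 0 h was 0.81 (SE 0.20, n = 3 against 3, limma adjusted P = 0.0295) at 1 h and 1.49 (SE 0.20, adjusted P = 0.000241) at 3 h, or 1.76-fold and 2.82-fold. It was 1.05 (adjusted P = 0.00167) at 6 h and 0.98 (adjusted P = 0.00202) at 9 h. In the order of mean levels, 0 h and 0.5 h overlapped, 0.5 h and 1 h did not, and each following pair of neighbours (1 h, 9 h, 6 h and 3 h) overlapped. The call at 3 h stayed in all alternatives tried, between 1.32 and 1.68. With normexp background correction the changes at 6 h and 9 h were not called (0.76, adjusted P = 0.226, and 0.70, adjusted P = 0.239), nor was Flt1 in the F-test (adjusted P = 0.0539). The call at 1 h was lost without 0 h replicate 1 (change 0.87, adjusted P = 0.057), 0 h replicate 2 (0.63, 0.121), 1 h replicate 2 (0.84, 0.0534) or 1 h replicate 3 (0.68, 0.111).

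The upstream bases of Flt1 are shown because it was the member that rose, and because they hold a motif rare among promoters. They are the 250 bases before its RefSeq start at chr12:12333180-12333429 on the + strand (GRCr8), with the cyclic AMP response element (CRE), TGACGTCA, in capitals.
Flt1: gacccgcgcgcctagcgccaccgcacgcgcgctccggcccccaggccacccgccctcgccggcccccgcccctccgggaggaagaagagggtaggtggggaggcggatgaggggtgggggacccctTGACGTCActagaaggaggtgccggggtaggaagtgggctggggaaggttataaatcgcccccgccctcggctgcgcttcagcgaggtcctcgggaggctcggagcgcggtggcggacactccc
The CRE began 124 bases before the start and was found in 1.59% of 33469 RefSeq windows of the same length, searched on both strands. It was chosen for the search after the Flt1 window had been read. RefSeq windows were held for 7 of the 10 genes (8 windows), and Flt1 was the 1 with a CRE. The hypoxia-inducible factor core ACGTG was in none of the 8 windows and in 16.6% of all windows. The AP-1 motif TGANTCA (6.34% of all) and the ETS motif CCGGAAG (7.27%) were in none of the 8 either. The SP1 motif GGGCGG was in 6 of the 8 windows and in 30.5% of all. These are matches of letters within this window and no measure of binding.

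The second Flt1 probe gave a different course. The reported probe starts at base 1641 of the transcript and the second at base 4406. Before scaling, the second was dim, with a signal of 61.9 to 73.9 at 0 h and 65.2 to 94.7 at 3 h. The reported probe had 95.1 to 142 and 291 to 428. At 0 h both lay below the median spot signal of the arrays, 145.7 to 163.5. At 3 h that median was 159.9 to 170.9, with the second probe below it and the reported probe above it. The second read -4.25, -4.16 and -4.37 on the 0 h arrays, -4.46, -3.91 and -3.82 on the 3 h arrays, and -3.63, -3.62 and -2.61 on the 9 h arrays. The change at 3 h was 0.20 (95% confidence interval -0.48 to 0.88, adjusted P = 0.715) where the reported probe gave 1.49 (1.07 to 1.92). Within each array, the second probe minus the reported probe was 1.30 lower at 3 h than at 0 h, with no overlap between the 3 arrays of each, which gives an exact two-sided permutation P of 0.1, the smallest that 3 against 3 allows. At 9 h both probes rose, by 0.97 (adjusted P = 0.0283) for the second. That call was lost in 8 of the 18 fits with 1 array left out, those without any 0 h array, 0.5 h replicate 1, 3 h replicate 2, 6 h replicates 2 and 3, or 9 h replicate 3, and the last gave 0.64 (adjusted P = 0.139). Which transcript forms the probes read was not tested.

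Vegfc, the ligand best known for lymphatic vessels, fell at 3 h. Its level began as 1.5, 1.71 and 1.34 on the 0 h arrays, with 1.33, 1.55 and 1.5 after 0.5 h and 1.5, 1.77 and 1.47 after 1 h. The 3 h arrays gave 0.61, 0.77 and 0.93. Later levels were 1.67, 1.85 and 1.48 (6 h) and 1.43, 1.14 and 1.58 (9 h). The 3 arrays of 3 h were below all 15 others, whose levels overlapped between neighbours in the order of means. The change was -0.75 against 0 h (SE 0.15, limma adjusted P = 0.00421) and -0.81 against 1 h, within 1 scan day (adjusted P = 0.00334), that is 1.68-fold and 1.75-fold lower. Against 0 h it stayed called, between -0.84 and -0.65, in all alternatives tried but the 2-fold minimum. Against 1 h it was lost in the fit of the 6 arrays of those time-points alone (adjusted P = 0.0603). At 6 h and 9 h the changes against 0 h were 0.15 (confidence interval -0.16 to 0.46) and -0.13 (-0.44 to 0.18).

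Nrp1, the co-receptor that binds VEGF and class 3 semaphorins, was lowest at the same time-point. On the 0 h arrays its level was -1.66, -1.51 and -1.87, on the 3 h arrays it was -2.47, -2.27 and -2.09, and it was between -1.77 and -0.88 on all other arrays. The 3 h arrays were below all others. The change at 3 h was -0.60 against 0 h (SE 0.18, limma adjusted P = 0.0404) and -0.93 against 1 h (adjusted P = 0.00525). The latter was not called with normexp background correction (-0.47, adjusted P = 0.86) or in the fit of the 6 arrays alone (adjusted P = 0.123). Against 0 h the change stayed between -0.69 and -0.50 with 1 array left out. It was not called in 10 of those 18 fits, without 0 h replicates 1 or 2, 0.5 h replicates 1 or 2, 1 h replicate 2, 3 h replicates 1 or 2, 6 h replicate 2 or 9 h replicates 1 or 2, with an adjusted P of up to 0.143. With normexp background correction it was -0.07 (adjusted P = 0.861).

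Vegfb, a ligand of Flt1 that is abundant in heart and skeletal muscle, fell at 6 h. Its level began as -0.11, -0.20 and -0.27 on the 0 h arrays, with -0.07, -0.22 and -0.22 after 0.5 h and -0.29, -0.28 and 0.49 after 1 h. The 3 h arrays gave -0.53, -0.84 and -0.82. Later levels were -0.85, -1.05 and -0.81 (6 h) and -0.74, -0.48 and -0.93 (9 h). Every array of 3 h, 6 h and 9 h was below all 9 earlier arrays. The change against 0 h was called at 6 h (-0.71, SE 0.18, limma adjusted P = 0.0109) and not at 3 h (-0.54, adjusted P = 0.0658) or 9 h (-0.52, adjusted P = 0.0369, with an unadjusted P above 0.01). Against 0 h it was called at 3 h without 1 h replicate 3 (-0.54, adjusted P = 0.00988) and at 9 h without 1 h replicate 1 (-0.52, 0.0332), 1 h replicate 3 (-0.52, 0.00467) or 9 h replicate 2 (-0.64, 0.0259). With normexp background correction the 6 h change was -0.55 (adjusted P = 0.0739). The second probe fell by 0.63 at 6 h (adjusted P = 0.0303), a call lost without 0 h replicate 1 or 3 or any of the 6 h arrays (adjusted P up to 0.105). Skeletal muscle markers summed to 2010 on 0 h replicate 1 and to 118 and 168 on 0 h replicates 2 and 3, while Vegfb lay between -0.27 and -0.11 on those arrays. The 6 h arrays had sums of 523, 3.57 and 90.7, and Vegfb there was lowest on replicate 2, the array with the sum of 3.57. Within the 0.5 h and 1 h groups, Vegfb was highest on the array with the largest sum (154 and 107). The 3 h and 9 h groups went the other way: Vegfb was lowest on the 3 h array with the largest sum (362) and highest on the 9 h array with the smallest (3.42). The part of muscle in the change at 6 h was not tested.

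Kdr, the main signalling receptor of VEGF in endothelium, was lower at 9 h. Its level was 4.63, 4.92 and 4.91 at 0 h and 4.16, 4.28 and 4.26 at 9 h. The 3 arrays of 9 h were below all 15 others, of which the lowest were 6 h replicates 3 and 1 at 4.35 and 4.38. The change at 9 h was -0.58 (SE 0.14, limma adjusted P = 0.00542), or 1.5-fold lower, and it stayed called in all alternatives tried but the 2-fold minimum. Its size depended on the scaling, from -0.76 with scaling to the median to -0.43 with quantile normalisation. Kdr had 1 probe, without a position in rn4. The signal before scaling was 34700 to 39500 at 0 h, 29000 to 37700 at 1 h and 30500 to 34400 at 9 h. Over the same arrays the median spot signal was 145.7 to 163.5 at 0 h, 156.2 to 159 at 1 h and 194.1 to 263.6 at 9 h. At 6 h the change was -0.36 (adjusted P = 0.0663), which was called without 0 h replicate 1 (-0.46, adjusted P = 0.0406) or 6 h replicate 2 (-0.45, 0.0463). In this bulk tissue, fewer cells of a type and less RNA per cell cannot be told apart. The summed level of 20 endothelial markers ranged from 76.6 to 85.6 on the 0 h arrays and from 63.0 to 72.2 on the 9 h arrays, without overlap. The sum was also below the 0 h range at 6 h (65.5 to 74.3) and already at 0.5 h (72 to 73.1). Kdr changed by -0.08 at 0.5 h (limma adjusted P = 0.774). The sums of 1 h (70.5 to 84.3) and 3 h (70.6 to 83.3) overlapped those of 0 h. At 9 h 5 of the 20 were called (31.1% of all gene names), 2 higher and 3 lower, with a median change of -0.11. The part of endothelial content in the Kdr level was not tested.

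Vegfa, the ligand that hypoxia induces through HIF, was not called at any time-point with its reported probe. That probe was printed 10 times on each array, and the spots of an array agreed within an SD of 0.11 at most. It read -0.81, -0.95 and -1.57 on the 0 h arrays, -1.73, -1.17 and -1.19 on the 3 h arrays, and -0.98, -0.84 and -0.57 on the 9 h arrays. The 0 h arrays spread over a wider range than the 6 group means. The changes against 0 h ran from -0.26 at 3 h (confidence interval -0.71 to 0.20) to 0.31 at 9 h (-0.14 to 0.76). The second probe, at base 1014 of the transcript, was -2.38, -2.78 and -3.00 at 0 h and -1.93, -1.69 and -0.06 at 9 h. Its change at 9 h was 1.49 (SE 0.45, limma adjusted P = 0.0204). Without 9 h replicate 3, the array of the third scan day, it was 0.91 (adjusted P = 0.0955), and it was also lost without 0 h replicate 2 or 0 h replicate 3. At 0.5 h, 1 h, 3 h and 6 h the changes of the second probe were 0.78, 0.53, 0.55 and 0.66. None was called, and only the 3 h arrays overlapped those of 0 h. Within each array, the second probe minus the reported probe was higher at every later time-point than at 0 h, by 0.48 (1 h) to 1.18 (9 h). There was no overlap at any of them (exact two-sided permutation P = 0.1 each, the smallest possible).

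The angiopoietins showed no call with their reported probes. Angpt1, the Tek agonist, was -2.45, -2.57 and -2.90 at 0 h and -3.44, -2.82 and -2.90 at 3 h, where the change was -0.41 (SE 0.19, limma adjusted P = 0.166) and, with normexp, 0.26 (adjusted P = 0.615). At the other time-points its change was between -0.17 and 0.04. Angpt2, the context-dependent antagonist stored in endothelial granules, was 2.18, 2.77 and 2.20 at 0 h and 1.62, 1.91 and 2.05 at 0.5 h. The groups did not overlap, but the change of -0.52 (SE 0.20) had an adjusted P of 0.136. From 3 h on its change was between -0.18 and 0.01.

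The 3 Angpt2 probes gave different changes at 9 h. The third probe, at base 598 of the transcript, was -2.58, -2.73 and -2.77 at 0 h and -2.13, -2.14 and -1.82 at 9 h. Its change at 9 h was 0.66 (SE 0.16, limma adjusted P = 0.00556), and it was called in all 18 fits with 1 array left out (0.56 to 0.72). Against 1 h it was 0.70 (adjusted P = 0.00453). Before scaling, the third probe had a signal of 188 to 234 at 0 h, where the reported probe had 5890 to 8880. The calls of the third probe with normexp background correction, other scaling, blocks or weights were not looked at. The reported probe, at base 1987, gave 0.00 at 9 h (confidence interval -0.42 to 0.42), and the second, at base 1331, gave 0.31 (-0.11 to 0.73). The second probe was called at 9 h against 1 h (0.60, adjusted P = 0.0358), and that call was lost in 14 of the 18 fits with 1 array left out. It was kept only without 0 h replicate 2, 1 h replicate 3, 6 h replicate 1 or 6 h replicate 3. Within each array, the third probe minus the reported probe stood 0.67 higher at 9 h than in the 0 h group, with no overlap (exact two-sided permutation P = 0.1, the smallest possible). The same difference was 0.59 at 0.5 h, also with no overlap, and 0.21 to 0.52 at 1 h, 3 h and 6 h, with overlap.

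**Figure D3:**
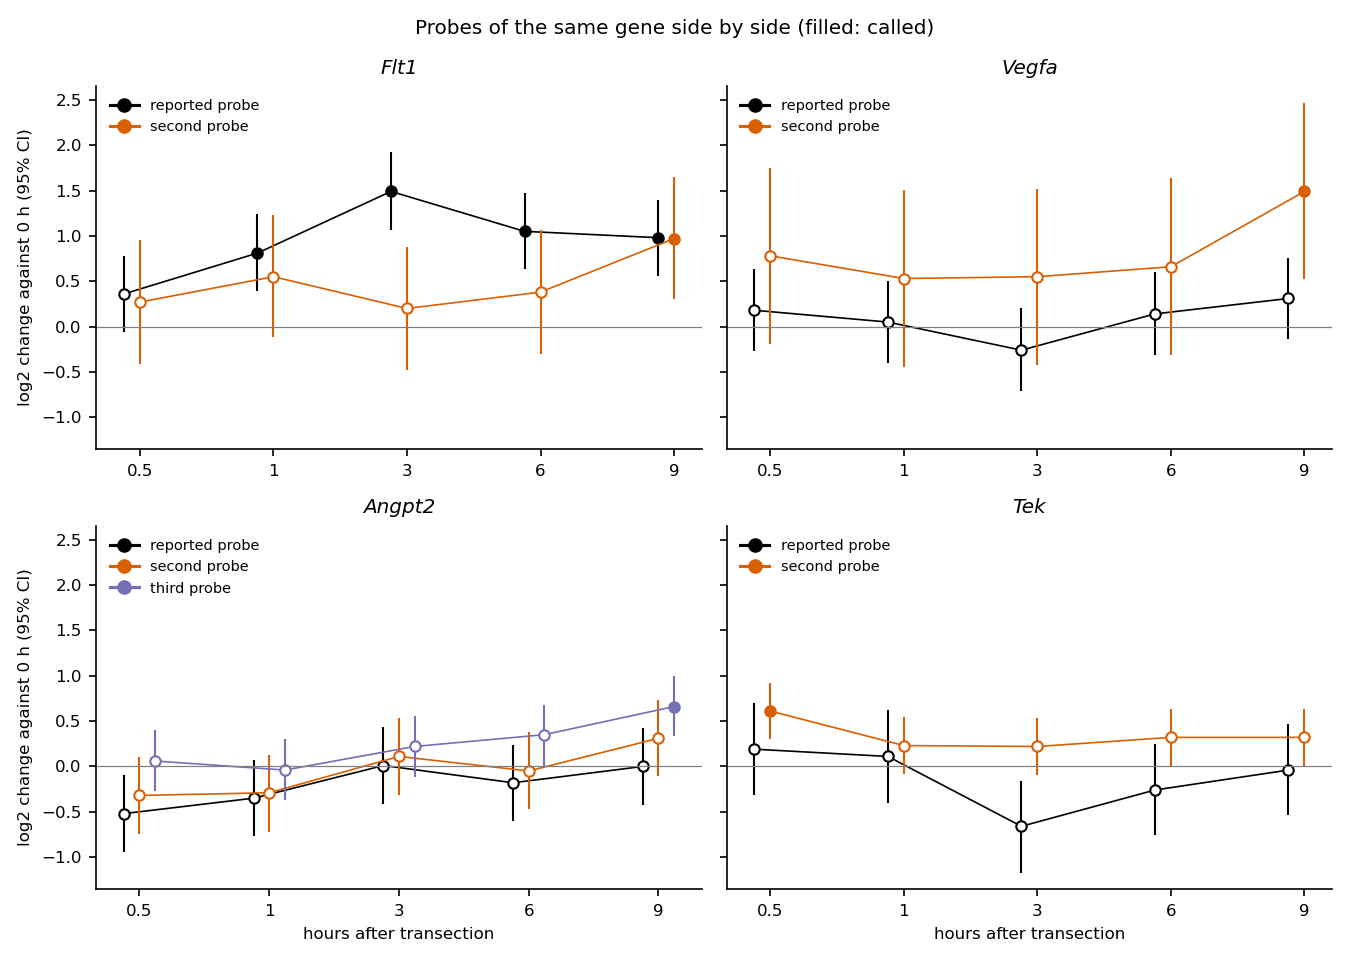
Change against 0 h on the log2 scale for each probe of Flt1, Vegfa, Angpt2 and Tek, with 95% confidence intervals, against hours after transection. Black is the reported probe, colours are the other probes and filled points were called. The Flt1 probes lay apart at 3 h (1.49 and 0.20) and together at 9 h (0.98 and 0.97), and the Tek probes lay apart at 3 h (-0.66 and 0.22).

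Tek and Tie1, the receptor kinases of the angiopoietin axis, had their lowest mean levels at 3 h and were not called. Tek was -2.27, -2.23 and -2.25 at 0 h and -2.71, -3.55 and -2.48 at 3 h, a change of -0.66 (SE 0.24, limma adjusted P = 0.0796). The groups did not overlap, and 3 h replicate 2 was far below the other 2 arrays. Tek at 3 h was called without 1 h replicate 3 (-0.66, adjusted P = 0.0429) and without 3 h replicate 3 (-0.88, adjusted P = 0.0344). With normexp background correction its change had the other sign (0.34, adjusted P = 0.399). The second Tek probe did not dip. Its signal before scaling was 41 to 49.2 on the 0 h arrays, where the reported probe had 270 to 291. The median spot signal of those arrays was 145.7 to 163.5, so a fall would be hard to read from this dim probe. Its level was -5.09, -4.94 and -4.71 at 0 h and -4.45, -4.17 and -4.28 at 0.5 h, a change of 0.61 within the first scan day (adjusted P = 0.026). That call was lost without 0 h replicate 1 or 2 or 0.5 h replicate 2 or 3 (adjusted P up to 0.0899). At 3 h it gave 0.22 (adjusted P = 0.345).

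Tie1 read -1.73, -1.96 and -2.21 on the 0 h arrays, -2.73, -2.48 and -2.72 on the 3 h arrays, and -3.06, -2.66 and -1.91 on the 6 h arrays. Its change was -0.68 (SE 0.32, limma adjusted P = 0.18) at 3 h and -0.58 (adjusted P = 0.202) at 6 h. The second probe gave -0.47 and -0.28 and was not called. At 1 h, Tie1 replicate 3 was -0.81, above all other arrays, and the second probe was also highest on that array at -2.26.

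Against 1 h, within the second scan day but for 9 h replicate 3, the calls of the reported probes were for Flt1, Vegfc, Nrp1, Vegfb and Kdr, and those of the other Angpt2 probes are given above. The 1 h replicate 3 array held the highest of the 18 levels for Vegfb, Nrp1, Tek and Tie1. These contrasts share the 1 h arrays, as those above share the 0 h arrays. At 3 h 4 of the 10 genes were called, beside 10.2% of all gene names: Flt1 higher (0.68, limma adjusted P = 0.0421) and Vegfc, Nrp1 and Vegfb lower (-0.81, -0.93 and -0.70). With normexp, Vegfc stayed called (-0.79, adjusted P = 0.0302) and Flt1 (0.51, 0.853) and Vegfb (-0.39, 0.487) did not. At 6 h 1 was called, beside 24%: Vegfb at -0.88 (adjusted P = 0.00332). At 9 h 2 were called, beside 25.4%: Vegfb at -0.69 (adjusted P = 0.0113) and Kdr at -0.49 (adjusted P = 0.0162). The fit of only the 11 arrays scanned on the second day, added after seeing the data, gave fewer calls: 3 h had 2 calls, 6 h had 1 and 9 h had none, with Vegfb at -0.59 (adjusted P = 0.125) and Kdr at -0.51 (adjusted P = 0.055) there. The share of all gene names called in that fit was not recorded. The Flt1 call at 3 h was lost in 10 of the 18 fits with 1 array left out (adjusted P up to 0.171), those without 0.5 h replicates 1 or 2, 1 h replicates 1 or 2, 3 h replicates 2 or 3, 6 h replicates 2 or 3, or 9 h replicates 1 or 2. The Vegfb call at 3 h was lost without 1 h replicate 3 (-0.45, adjusted P = 0.0649), 3 h replicate 2 (-0.65, 0.0903) or 3 h replicate 3 (-0.66, 0.0876), and at 9 h without 9 h replicate 3 (-0.59, 0.0534). The Kdr call at 9 h was lost without 1 h replicate 2 (-0.39, 0.07) or 9 h replicate 1 (-0.46, 0.0604). Without 1 h replicate 1, Tie1 was called at 3 h (-1.24, adjusted P = 0.0396) and 6 h (-1.15, 0.0282) and Nrp1 at 6 h (-0.53, 0.0391), and without 6 h replicate 3, Tie1 was called at 6 h (-1.19, 0.0189). Tek at 3 h was called without 1 h replicate 1 (-0.98, 0.0295) or 3 h replicate 3 (-0.99, 0.0293).

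Other ligands, receptors and modulators of the same system were read from a list of 17 genes, of which 16 were on the array, 14 were tested and 8 changed in the F-test, where 34.6% of all gene names did. The 3 with the largest changes were matricellular or secreted proteins. Adamts1, a protease that binds VEGF and limits vessel growth, was 2.79 higher at 0.5 h (SE 0.30, limma adjusted P = 0.000179) and 2.46 to 3.34 higher from 1 h to 9 h. Ccn1, an integrin ligand that promotes vessel growth, was 2.52 higher at 0.5 h (adjusted P = 6.91e-05) and 0.94 higher at 9 h (adjusted P = 0.00812). Thbs1, thrombospondin 1, an inhibitor of vessel growth, rose by 2.15 at 3 h (adjusted P = 0.00201) and 2.76 at 9 h (adjusted P = 0.000124). Outside the rule for named genes and chosen after their values were seen, the semaphorin receptor Plxnd1 fell by 0.98 at 3 h (adjusted P = 0.000589). Ptprb, the phosphatase that restrains Tek and Kdr, likewise fell by 0.67 at 9 h (adjusted P = 0.00092). The remaining ligands Pgf, Vegfd and Angpt4 and the receptors Flt4 and Nrp2 were not called at any time-point, with F-test adjusted P-values of 0.109 to 0.907.

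**Figure D4:**
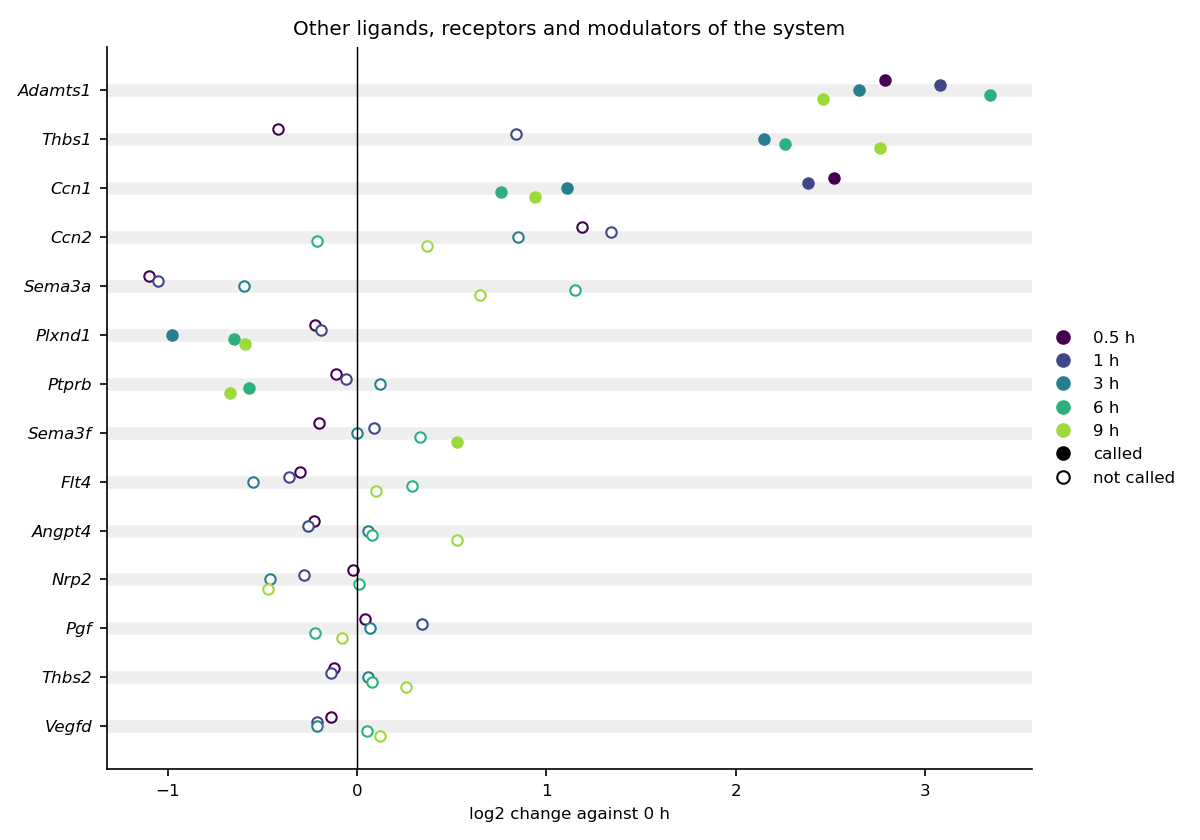
Change against 0 h on the log2 scale for the 14 tested genes of the list of other ligands, receptors and modulators, at each later time-point. Filled points were called and open points were not. Adamts1 was called at all 5 time-points (2.46 to 3.34), and the genes from Flt4 down have open points only.

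Among genes that act below the VEGF receptors and Tek, 17 of 45 tested genes were called in the F-test (34.6% of all gene names). At 3 h 5 were higher and 4 lower (14% of all called), and at 9 h 8 were higher and 4 lower (31.1% of all called). Sphk1, the kinase that makes sphingosine 1-phosphate, rose by 1.67 at 1 h (limma adjusted P = 0.00943) and 3.77 at 3 h (adjusted P = 9.48e-06). Ptgs2, the inducible cyclo-oxygenase, rose by 2.80 at 0.5 h (adjusted P = 8.39e-05) and was 1.42 higher at 9 h. Dok2, an adaptor that docks to Tek and is abundant in blood cells, rose by 1.75 at 9 h (adjusted P = 0.00137). Nos3, endothelial nitric oxide synthase, is named after its values were seen: it was 1.45 higher at 3 h (adjusted P = 0.000741) and 1.53 higher at 9 h. The median change of the 45 genes was between -0.09 and 0.08 at the 5 time-points.

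Genes that VEGF induces as feedback, or that mark sprouting tip cells, were called for 7 of 16 in the F-test, beside 34.6% of all gene names. At 3 h 4 were higher and 4 lower, beside 14% of all gene names, and at 9 h 4 were higher and none lower, beside 31.1%. Dusp5, a phosphatase of ERK, rose from 1.49 at 0.5 h (limma adjusted P = 0.00273) to 3.30 at 3 h (adjusted P = 1.38e-06). Spry4, a Sprouty inhibitor of receptor kinase signalling, was 1.08 higher at 0.5 h (adjusted P = 0.0139), and Spry2 was 1.08 higher at 6 h (adjusted P = 0.00176). Chosen after their values were seen, the Notch ligand Jag1 and the tip-cell peptide Apln shared the low point of Vegfc and Nrp1, with changes of -0.98 (adjusted P = 0.00113) and -1.03 (adjusted P = 0.0245) at 3 h and no call at 6 h or 9 h. Jag1 and Apln were read in the main fit only, so whether their low values depend on the background correction was not tested.

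Hypoxia response genes, to which Vegfa belongs, were called for 15 of 27 in the F-test, against 34.6% of all gene names. At 9 h 6 were higher and 6 lower, against 31.1% of all gene names called. Hmox1, the heme-degrading enzyme, was 2.67 higher at 3 h and 3.76 higher at 6 h (limma adjusted P = 1.84e-06). Hk2, a hexokinase, was 1.73 higher at 3 h and 2.14 higher at 6 h (adjusted P = 4.7e-05). The median change of the list was between -0.03 and 0.13, beside 0.00 to 0.02 over all gene names.

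Vessel wall markers gave the tissue around these receptors. Of 20 endothelial markers 9 were called in the F-test, whose share over all gene names, 34.6%, also applies to the marker counts that follow. Eng, a TGF-beta co-receptor, was 1.07 higher at 9 h (limma adjusted P = 0.0122), whereas Emcn and Mmrn2, both membrane or matrix proteins of endothelium, fell by 0.57 and 0.72 at 3 h and by 0.63 and 0.92 at 9 h. Of 10 pericyte and smooth muscle markers 4 were called. Rgs5 fell by 0.47 at 3 h and 1.04 at 9 h (adjusted P = 2.31e-05), Cspg4 fell by 0.56 at 3 h and 0.63 at 9 h, and Kcnj8 was 0.44 higher at 1 h (adjusted P = 0.0357). The summed level of the 10 markers ranged from 76.7 to 91.1 on the 0 h arrays, from 68.8 to 78.7 on the 3 h arrays, which overlapped, and from 67.1 to 73.1 on the 9 h arrays, which did not. Fibroblast marker sums were between 1320 and 1410 at 0 h and between 916 and 970 at 9 h, without overlap. Schwann cell marker sums were between 864 and 1020 at 0 h and between 685 and 780 at 9 h, also without overlap. Neutrophil markers were called for 11 of 13, and their summed level went from 2.03 to 3.02 at 0 h to 20.6 to 24.5 at 9 h. Called in the F-test were also 8 of 14 macrophage, 6 of 14 Schwann cell, 8 of 12 fibroblast, 1 of 9 adipocyte, 0 of 5 erythroid and 0 of 14 skeletal muscle markers, with 0 of both last lists at an unadjusted P below 0.05 in that limma test. In single contrasts against 0 h no gene of those lists was called either, but 4 of 5 erythroid markers had an unadjusted P below 0.05 at 0.5 h (median change 1.42) and 4 of 5 at 3 h (1.58), as had 3 of 14 muscle markers at 1 h (-4.32). The part of these cell types in the changes of the 10 genes was not tested.

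For the gene with the smallest P in each role group, the genes whose levels correlated most with it over the 18 arrays were sought among 11348 genes. Vegfc was nearest to Nfatc4 (Pearson's r = 0.91), Epha4 (r = 0.85) and Egln3 (r = 0.833). For Epha4, an ephrin receptor, the mean level was lowest at 3 h (-2.58), as for Vegfc, against -1.53 at 0 h and -1.56 in the 6 h group. Flt1 was nearest to Rnf19b (r = 0.949), Rrh (r = 0.925) and Rlim (r = 0.925), and all 3 had their highest mean at 3 h. Angpt2 was nearest to Plpp5 (r = 0.915), Scnn1g (r = 0.885) and Elmo3 (r = 0.836), and Tek to Limd2 (r = 0.875), Rbm6 (r = 0.872) and Rcbtb2 (r = 0.865). These correlations run over the same 18 arrays, 3 per time-point, so they mix time with the spread between arrays, and are descriptions. Angpt2 and Tek were themselves not called in the F-test. Nor were Egln3 (limma adjusted P = 0.0877), Rbm6 (0.122), Plpp5 (0.127), Scnn1g (0.271) and Elmo3 (0.41).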

How the data were processed

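Total RNA of the proximal nerve stump was labelled with Cy3 and hybridised to 18 single-colour Agilent rat arrays with 45018 spots, of which 43379 were non-control spots. The authors deposited the Feature Extraction output, from which the processed signal intensity was used, together with a matrix of log2 values. In that deposited log2 matrix the sorted values of the 18 columns were equal within 0.002 (median 7.75 in each), which is the form of quantile normalised values, and within each array it kept the rank order of the scanner intensity, with the offset unknown. Probe positions (rn4) are those of the deposited files.

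Outlier and control spots were left out, log2 intensities were shifted to the array's 75th percentile and a probe's repeated spots were averaged. A probe was tested where all 3 arrays of some time-point had it well above background (32110 probes). Of 41012 probes, 21307 were named through RefSeq accessions or symbols, the rest keeping the file's own name. limma 3.58.1 (R 4.3.3) fitted time-point means and gave an F-test and contrasts against 0 h and 1 h, tested first on simulated data. A gene was called at P below 0.01 and Benjamini-Hochberg adjusted P below 0.05. The number of arrays limits the precision. From each list, the 3 called genes with the largest change against 0 h were named, except where a gene is not reported here, and every probe of the 10 genes was described. Genes and lists were chosen with earlier results of these data known. Alternatives covered background correction, scaling, the dim-probe filter, blocks, weights and single arrays left out. Apart from the count of all gene names called in the F-test, they were read for the 10 genes only. All other genes of the lists were read in the main fit only. Promoter windows are from RefSeq (GRCr8).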

Additional observations from a re-analysis of the deposited data

How the results depend on the processing

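No call of a result turned its direction under any alternative tried. With normexp background correction on the mean and local background signals, members called numbered 2 in the F-test, 0 at 1 h, 0 at 6 h and 1 at 9 h against 0 h, and 1 at 3 h and 1 at 9 h against 1 h, with 3027 gene names called in the F-test (9415 in the reported fit). Requiring at least 2-fold left 1 member and 2529 gene names in the F-test, and against 0 h it left 1 member each for 3 h and 6 h, 0 each for 1 h and 9 h, and 0 in each contrast against 1 h. At 1 h against 0 h, quantile normalisation, the deposited matrix, scaling to the median and the fit of 6 arrays alone each gave 0 calls. At 0.5 h the shift to the median gave 1 and counting any probe of a gene gave 1, and at 9 h counting any probe gave 4. Array weights gave 5 at 3 h against 0 h, and 6 members and 12536 gene names in the F-test. Against 1 h, the fit of the 6 arrays of each contrast gave 0 in all 3 contrasts, the scan day as a block gave 1 at 9 h, and the second scan day alone, chosen after seeing the data, gave 2 at 3 h and 0 at 9 h. With 1 array left out, members called ranged from 4 to 6 in the F-test, 0 to 1 at 1 h, 2 to 5 at 3 h, 2 to 3 at 6 h and 2 to 3 at 9 h against 0 h, and 2 to 5 at 3 h, 1 to 3 at 6 h and 1 to 2 at 9 h against 1 h. The gene names called in the F-test ranged from 8160 to 9962. For single contrasts, the gene names called under an alternative were not recorded. The members called there therefore have no share over all gene names beside them. Leaving out single arrays for the other probes was also added after seeing the data. The calls of those probes with other background correction, scaling, blocks or weights were not looked at. The cause of these differences was not tested.

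The titles number the replicates. Same-numbered arrays deviated together in 22 of 45 pairs (correlation over 0.1, median 0.0697), and differently numbered arrays in 28 of 90 (median 0.00673). These shares, higher for the same number, do not settle whether the numbers pair the samples, and the main fit did not pair them. With the replicate number as a block, 5 members were called in the F-test and 3 at 6 h against 0 h, where Kdr was added (-0.36, adjusted P = 0.0255), and 9488 gene names were called in the F-test. With the block, Tek at 3 h against 1 h was also called (-0.78, 0.0494) and Flt1 at 3 h against 1 h was not (0.68, 0.0521), and no other member changed its call.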
